A study of Arabidopsis thaliana with 12 samples.

Results

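The MYB transcription factors that activate glucosinolate synthesis and the SDI proteins that repress it were followed in young leaves of Arabidopsis thaliana. The set holds 8 genes, taken by locus name from the deposited tables: the aliphatic activators MYB28 (AT5G61420), MYB29 (AT5G07690) and MYB76 (AT5G07700), the indole activators MYB34 (AT5G60890), MYB51 (AT1G18570) and MYB122 (AT1G74080), and the repressors SDI1 (AT5G48850) and SDI2 (AT1G04770). They are 8 of 37242 genes in each table, and 7 of them passed the filter on low counts that left 19416 genes for testing. Plants of the mutant npf8.4-1 and of the accession Col-0 grew hydroponically with 5 mM KNO3 as nitrogen source. They were harvested at 15 days (day 0) or after another 2 days in medium without nitrogen (day 2). This gives 4 groups of 3 libraries: npf8.4-1 day 2, npf8.4-1 day 0, Col-0 day 2 and Col-0 day 0. Each library is poly(A) RNA from a pool of 15 plants, described as a biological replicate. No nitrogen-fed group of the later age was analysed here, so depletion and 2 days of age cannot be told apart. A single mutant allele was used, and the sources used here do not give its site.

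Glucosinolates are sulfur-rich defence compounds of cabbage relatives, released as toxic products when a leaf is damaged. Aliphatic glucosinolates are built from methionine after its side chain is lengthened, and indole glucosinolates are built from tryptophan. R2R3 MYB factors of one subgroup switch on the genes of each branch together with MYC partners, while SDI1, named for its induction by sulfur deficiency, binds MYB28 and holds the aliphatic branch back.

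The 12 libraries held between 28761674 and 34282716 exon reads. The targeted gene, NPF8.4, which encodes a vacuolar membrane transporter, had 22, 47 and 22 reads in npf8.4-1 day 2 libraries and 25, 10 and 10 reads in npf8.4-1 day 0 libraries, against 568, 479 and 342 reads in Col-0 day 2 libraries and 250, 231 and 174 reads in Col-0 day 0 libraries. The genotypes did not overlap at either day, as the labels have it. Of the markers of other cell types, the 4 root genes summed to at most 3.65 CPM (read counts scaled to a common library total) in any library, with EXPA7 at 0, and the 4 meristem and flower genes to at most 5.58 CPM, with STM at 0, while the 4 leaf photosynthesis genes summed to between 32540 and 48933 CPM. Across all tested genes 32.5% rose and 31.6% fell with depletion in npf8.4-1, and 29.6% rose and 30.4% fell in Col-0. All 4 vascular genes rose in both genotypes. The vascular genes summed to 416 to 509 CPM at npf8.4-1 day 2 and 113 to 169 CPM at npf8.4-1 day 0. In Col-0 the sum was 413 to 498 CPM at day 2 and 156 to 212 CPM at day 0. Of the 4 guard and myrosin cell genes 3 rose in both genotypes, and FAMA fell in Col-0 (log2 fold change -0.22) and did not pass in npf8.4-1 (0.092). Their sum, nearly all of it the myrosinase gene TGG1, was 6758 to 6800 CPM at npf8.4-1 day 2 and 3878 to 4377 CPM at npf8.4-1 day 0, against 6522 to 7187 CPM at Col-0 day 2 and 4422 to 4871 CPM at Col-0 day 0. Single genes of the other lists also moved with the day in both genotypes: AG, SEP1 and the leaf gene LHCB2.1 rose, and the root gene PRP3 fell, while the leaf gene RBCS1A fell in npf8.4-1. PRP3 was near the floor. Its reads summed to 4 at npf8.4-1 day 2 and 40 at npf8.4-1 day 0. In Col-0 they summed to 0 at day 2 and 18 at day 0. These markers moved with the day, as the regulators did, and their part in the results below was not tested. In bulk leaf RNA, fewer cells of a type and less RNA per cell cannot be told apart.

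Of the 8 genes, 5 lie on chromosome 5 and 3 on chromosome 1 (TAIR10 coordinates of the deposited tables, counted from 1). MYB29 (2446669 to 2448584) and MYB76 (2450027 to 2451807) are neighbours on the plus strand, 1442 bases apart. MYB34 (24494291 to 24496371, plus strand) and MYB28 (24689069 to 24691187, minus strand) lie near the other end of chromosome 5, and SDI1 (19805437 to 19807853, minus strand) lies between. MYB51 (6389399 to 6391386, plus strand), MYB122 (27855578 to 27857598, plus strand) and SDI2 (1336274 to 1337849, minus strand) are on chromosome 1. Within the aliphatic trio the coding sequences were 75.4% to 77.6% identical, and MYB51 and MYB122 were 74.4% identical. The closest stretch between any 2 of the 8 was a shared run of 32 bases, in MYB28 and MYB76, and no pair shared a run of 50 bases. SDI1 and SDI2 were 66.6% identical in coding sequence and shared no run over 17 bases. SDI2 overlaps AT1G04760, on the opposite strand, by 431 bases, and the sources used here do not give the strand setting of the authors' counting.

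The 300 bases before the annotated start are shown for 2 pairs of genes that moved together in the data below, the SDI repressors and the aliphatic activators MYB28 and MYB29. They were read 5′ to 3′ on the gene's own strand from the RefSeq genome TAIR10.1, at chr5:19807854-19808153 (SDI1, minus), chr1:1337850-1338149 (SDI2, minus), chr5:24691188-24691487 (MYB28, minus) and chr5:2446369-2446668 (MYB29, plus). Capitals mark GAGAC, the core of the sulfur-responsive element, and TTGAC, the core of the W-box bound by WRKY factors, on either strand.
SDI1: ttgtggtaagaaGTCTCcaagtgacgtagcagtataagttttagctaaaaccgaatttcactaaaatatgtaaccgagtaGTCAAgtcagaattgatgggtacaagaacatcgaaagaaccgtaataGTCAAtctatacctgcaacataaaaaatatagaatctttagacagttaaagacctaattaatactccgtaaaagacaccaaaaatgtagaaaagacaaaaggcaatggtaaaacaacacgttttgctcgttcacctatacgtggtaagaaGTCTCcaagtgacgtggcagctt
SDI2: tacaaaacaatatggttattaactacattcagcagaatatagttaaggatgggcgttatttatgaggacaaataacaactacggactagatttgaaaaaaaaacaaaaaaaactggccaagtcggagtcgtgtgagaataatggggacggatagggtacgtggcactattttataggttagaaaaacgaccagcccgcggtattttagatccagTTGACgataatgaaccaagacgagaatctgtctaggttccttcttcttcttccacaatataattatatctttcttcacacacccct
MYB28: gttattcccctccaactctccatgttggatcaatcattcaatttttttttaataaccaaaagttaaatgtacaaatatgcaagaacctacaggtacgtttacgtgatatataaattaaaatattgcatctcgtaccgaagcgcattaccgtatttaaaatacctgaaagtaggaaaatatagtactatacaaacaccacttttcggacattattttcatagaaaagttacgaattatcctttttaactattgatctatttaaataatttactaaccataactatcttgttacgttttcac
MYB29: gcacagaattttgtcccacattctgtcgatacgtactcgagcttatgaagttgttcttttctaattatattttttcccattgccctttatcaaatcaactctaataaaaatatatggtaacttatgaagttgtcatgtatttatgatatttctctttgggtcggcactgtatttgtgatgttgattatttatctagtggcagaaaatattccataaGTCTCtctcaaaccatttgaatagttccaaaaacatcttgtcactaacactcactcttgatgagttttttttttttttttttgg
SDI1 held GAGAC at 288 and 23 bases upstream, each time on the reverse strand as GTCTC, and TTGAC at 220 and 173 bases upstream. Both GAGAC matches sit inside a direct repeat of 25 bases, GTGGTAAGAAGTCTCCAAGTGACGT, whose copies start 298 and 33 bases before the gene. The longest direct repeat in the windows of the other 7 genes ran from 7 bases in MYB51 to 13 bases in MYB29. SDI2 held a single TTGAC, 86 bases upstream, and MYB29 a single GAGAC, 84 bases upstream. MYB51 held 2 TTGAC matches, and MYB76 held 2 that abut in the palindrome GTCAATTGAC, while MYB28, MYB34 and MYB122 held neither motif in this window. No member held CACGTG, the G-box that MYC factors bind. Of 27443 promoter windows of the same length, 30.0% held GAGAC, 50.4% held TTGAC and 7.1% held CACGTG. These matches describe letters in the windows and nothing more.

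MYB122 had 0 reads in all 12 libraries. At 3 reads per library, the level that a count of 0 allows was at most 0.084 to 0.11 CPM, counting error only. MYB122 was therefore not detectable at this depth, and the indole branch is described by MYB34 and MYB51.

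The depletion comparison asked how the regulators stood after 2 days without nitrogen. In npf8.4-1, all 5 detected MYB activators rose and both SDI repressors fell, with no overlap between the days for any of the 7 genes. Across all genes tested 32.5% rose and 31.6% fell there, and 35.5% and 34.4% lay wholly above or below day 0. In Col-0, 4 of the 5 detected activators rose, MYB34 being the exception, and both repressors fell, where 29.6% of all genes rose and 30.4% fell. The median log2 fold change over all genes was 0.027 in npf8.4-1 and 0.025 in Col-0. With this many calls, a call alone sets none of the 7 genes apart. All calls are from the edgeR quasi-likelihood test with Benjamini-Hochberg adjustment over the 19416 genes, at an adjusted p under 0.05.

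MYB28, the main activator of the aliphatic branch, had 63.8, 71.5 and 60.3 TPM in npf8.4-1 day 2 libraries and 21.8, 19.8 and 15.1 TPM in npf8.4-1 day 0 libraries, against 61.7, 48.1 and 38.3 TPM in Col-0 day 2 libraries and 21.2, 21.4 and 24.0 TPM in Col-0 day 0 libraries. TPM here is the authors' value per gene length and library. Every day 2 library was above every day 0 library, and the 3 Col-0 day 2 libraries were the most spread. The log2 fold change was 1.69 in npf8.4-1 (SE 0.15, edgeR adjusted p = 8.72e-07) and 1.08 in Col-0 (SE 0.14, edgeR adjusted p = 3.83e-05).

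MYB29, a close relative tied to the jasmonate response, followed the same order at a lower level. It had 22.0, 25.3 and 21.5 TPM in npf8.4-1 day 2 libraries and 6.08, 5.41 and 4.22 TPM in npf8.4-1 day 0 libraries, against 20.1, 16.1 and 10.5 TPM in Col-0 day 2 libraries and 6.48, 5.54 and 7.16 TPM in Col-0 day 0 libraries. The days did not overlap in either genotype. The log2 fold change was 2.03 in npf8.4-1 (SE 0.19, edgeR adjusted p = 1.11e-06) and 1.21 in Col-0 (SE 0.18, edgeR adjusted p = 9.30e-05). Per library, MYB28 stood at 2.81 to 2.90 times MYB29 in TPM at npf8.4-1 day 2 and 3.58 to 3.66 times at npf8.4-1 day 0, against 2.99 to 3.66 times at Col-0 day 2 and 3.27 to 3.87 times at Col-0 day 0. The ratio thus differed between the days without overlap in npf8.4-1, and overlapped in Col-0.

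MYB76, the neighbour of MYB29 and an accessory activator of the same branch, was the least abundant of the trio. Its reads were 140, 115 and 127 in npf8.4-1 day 2 libraries and 33, 7 and 10 in npf8.4-1 day 0 libraries, against 106, 74 and 54 in Col-0 day 2 libraries and 17, 23 and 12 in Col-0 day 0 libraries. The first npf8.4-1 day 0 library was high for its group, and the days still did not overlap. MYB76 had a log2 fold change of 2.73 in npf8.4-1 (SE 0.41, edgeR adjusted p = 8.16e-05) and 2.25 in Col-0 (SE 0.42, edgeR adjusted p = 0.000483).

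**Figure D1:**
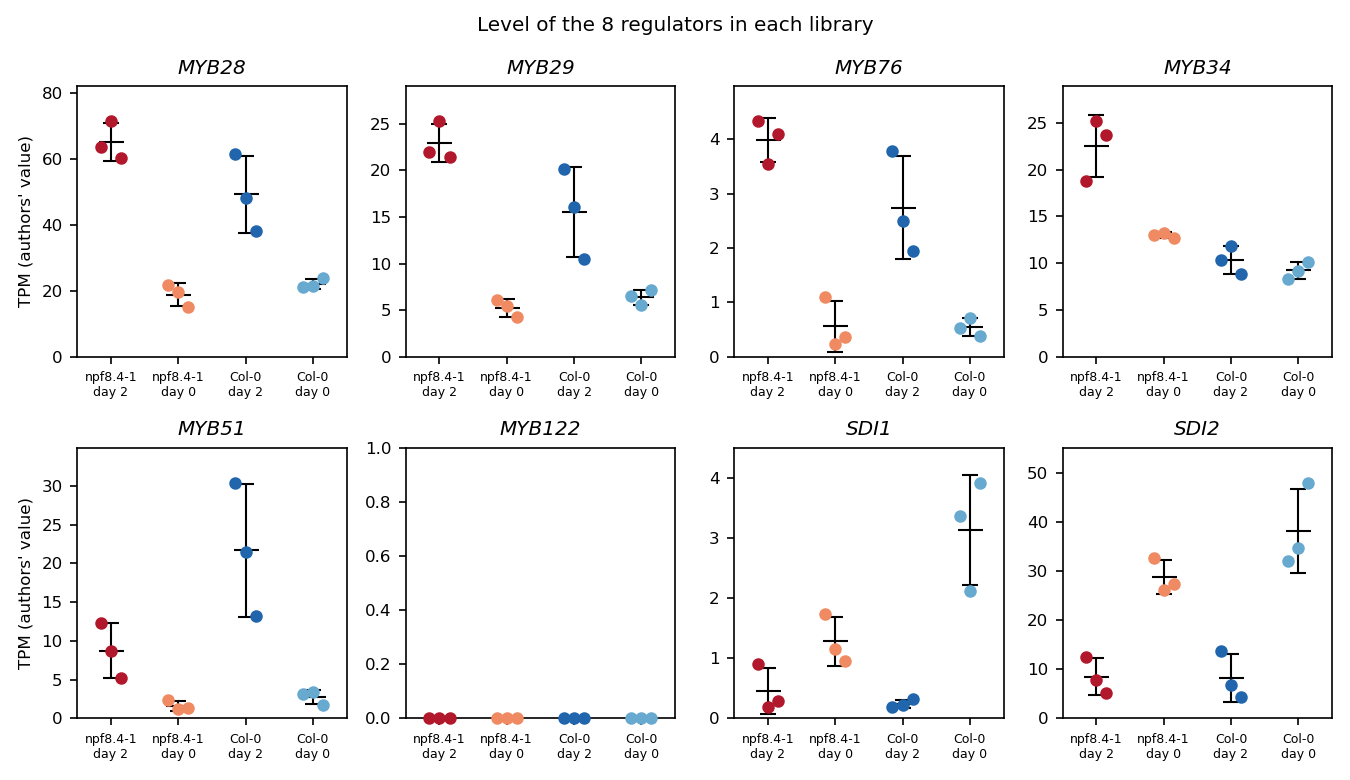
Level of each of the 8 regulators in TPM (vertical axis, from 0) in the 4 groups, with 1 point per library and bars for the mean ± SD of 3 libraries. The aliphatic activators and MYB51 are high at day 2, SDI1 and SDI2 are high at day 0, MYB34 is highest at npf8.4-1 day 2, and MYB122 is at 0 in all 12 libraries.

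The indole activators parted. MYB34, which acts in indole glucosinolate synthesis and was first found as a regulator of tryptophan synthesis, had 18.8, 25.2 and 23.7 TPM in npf8.4-1 day 2 libraries and 13.1, 13.3 and 12.7 TPM in npf8.4-1 day 0 libraries, against 10.4, 11.9 and 8.81 TPM in Col-0 day 2 libraries and 8.36, 9.20 and 10.2 TPM in Col-0 day 0 libraries. The mutant libraries of each day lay above all Col-0 libraries, and the Col-0 days overlapped. The log2 fold change with depletion was 0.70 in npf8.4-1 (SE 0.11, edgeR adjusted p = 0.000152) and 0.10 in Col-0 (SE 0.12, edgeR adjusted p = 0.486), which did not pass.

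MYB51, the indole activator tied to defence signalling in leaves, had the largest fitted increase of the members in Col-0. It had 12.3, 8.75 and 5.17 TPM in npf8.4-1 day 2 libraries and 2.39, 1.17 and 1.33 TPM in npf8.4-1 day 0 libraries, against 30.4, 21.5 and 13.2 TPM in Col-0 day 2 libraries and 3.12, 3.44 and 1.76 TPM in Col-0 day 0 libraries. The libraries of both day 2 groups were widely spread, and all stayed above day 0. The log2 fold change was 2.33 in npf8.4-1 (SE 0.42, edgeR adjusted p = 0.000504) and 2.88 in Col-0 (SE 0.39, edgeR adjusted p = 8.95e-05). By fitted change, MYB51 was 289th from the highest of 19416 genes in Col-0.

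SDI1 was among the genes with the steepest fitted decreases in Col-0, 22nd from the lowest of 19416. It is a low transcript in these leaves, with 23, 5 and 7 reads in npf8.4-1 day 2 libraries and 41, 28 and 21 reads in npf8.4-1 day 0 libraries, against 4, 5 and 7 reads in Col-0 day 2 libraries and 85, 54 and 97 reads in Col-0 day 0 libraries. The Col-0 days stood far apart, while the first npf8.4-1 day 2 library, with 23 reads, came close to the lowest npf8.4-1 day 0 library after scaling without overlapping it. SDI1 fell by 1.55 on the log2 scale in npf8.4-1 (SE 0.48, edgeR adjusted p = 0.0126) and fell by 3.75 in Col-0 (SE 0.51, edgeR adjusted p = 4.26e-05). The call in npf8.4-1 rests on single libraries: the adjusted p was 0.0516 without npf8.4-1 day 0 replicate 1 and 0.0538 without npf8.4-1 day 2 replicate 2, and it ran from 0.000694 to 0.0538 over 20 alternatives.

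SDI2, the second repressor, was much the more abundant. It had 338, 213 and 132 reads in npf8.4-1 day 2 libraries and 818, 674 and 633 reads in npf8.4-1 day 0 libraries, against 319, 169 and 99 reads in Col-0 day 2 libraries and 856, 934 and 1257 reads in Col-0 day 0 libraries. The days did not overlap in either genotype, and within both day 2 groups the first library was the highest. SDI2 fell by 1.85 on the log2 scale in npf8.4-1 (SE 0.37, edgeR adjusted p = 0.00114) and fell by 2.29 in Col-0 (SE 0.37, edgeR adjusted p = 0.000339). AT1G04760, which overlaps it on the other strand, had 45, 58 and 95 reads at npf8.4-1 day 2 and 180, 192 and 210 at npf8.4-1 day 0, against 76, 59 and 81 at Col-0 day 2 and 139, 152 and 252 at Col-0 day 0. AT1G04760 also fell, by 1.76 in npf8.4-1 (SE 0.30, edgeR adjusted p = 0.000207) and fell by 1.21 in Col-0 (SE 0.29, edgeR adjusted p = 0.00335), and how many reads the 2 genes share was not tested. The relative AT3G51280 was the only other member of the SDI family list to pass the filter. It fell by 2.02 in npf8.4-1 (SE 0.32, edgeR adjusted p = 0.000245) and fell by 1.60 in Col-0 (SE 0.32, edgeR adjusted p = 0.00132).

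The genotype comparison asked how the loss of NPF8.4 transcript stood with the regulators at each day. At day 2, 1 of the 7 tested members was higher in npf8.4-1 and 0 were lower by edgeR, where 0.484% and 0.953% of all genes were (1.44% in either direction). That gene was MYB34, at 22.6 ± 3.34 TPM in npf8.4-1 and 10.3 ± 1.52 TPM in Col-0 (SD, n = 3 each), 2.15-fold higher in the fit (log2 fold change 1.10, SE 0.12, edgeR adjusted p = 0.000894). It was higher in 3 of 3 libraries and was 163rd from the highest of 19416 genes by fitted change. Its adjusted p ran from 2.08e-13 to 0.0210 over 20 alternatives, all past the threshold. MYB34 at day 0 also had its 3 npf8.4-1 libraries above the 3 Col-0 libraries, with 13.0 ± 0.302 TPM in npf8.4-1 and 9.24 ± 0.904 TPM in Col-0. Its log2 fold change there of 0.51 did not pass (SE 0.12, unadjusted p = 0.000840, edgeR adjusted p = 0.148).

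MYB51 lay on the other side. At day 2 it averaged 8.74 ± 3.56 TPM in npf8.4-1 and 21.7 ± 8.63 TPM in Col-0 (SD, n = 3 each), and all 3 npf8.4-1 libraries were below all 3 Col-0 libraries. The log2 fold change of -1.31 did not pass with edgeR (SE 0.36, edgeR adjusted p = 0.119). The DESeq2 test put it past the threshold, with a log2 fold change of -1.32 and a DESeq2 adjusted p of 0.00739, and over 20 alternatives the adjusted p ran from 0.000496 to 0.356. Of 19037 genes at day 2, DESeq2 called 259 higher and 525 lower, more than edgeR did. At day 0 MYB51 had a log2 fold change of -0.77 (SE 0.44, edgeR adjusted p = 0.812), with overlapping libraries.

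The aliphatic activators were above Col-0 at day 2 without passing. MYB28 had a log2 fold change of 0.39 (SE 0.14, edgeR adjusted p = 0.247) and MYB29 of 0.55 (SE 0.17, edgeR adjusted p = 0.162), both with 3 of 3 npf8.4-1 libraries higher in CPM, though the MYB28 libraries overlapped in TPM, and MYB76 of 0.53 (SE 0.35, edgeR adjusted p = 0.616) with overlap. With MYB34, 3 of the 7 members had their npf8.4-1 libraries wholly above Col-0 at day 2, where 9.3% of all genes did, and MYB51 was wholly below, as were 6.76% of all genes. SDI1 had a log2 fold change of 0.92 (SE 0.61, edgeR adjusted p = 0.614) and SDI2 of 0.043 (SE 0.38, edgeR adjusted p = 0.981), both with overlapping libraries. SDI1 changed sign, to -0.017, without npf8.4-1 day 2 replicate 1, the library with 23 reads. SDI2 changed sign without that library (-0.36), without Col-0 day 2 replicate 2 (-0.11) and without Col-0 day 2 replicate 3 (-0.26).

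At day 0, none of the 7 tested members passed with edgeR, where 0.0309% of all genes were higher and 0.118% lower (0.149% in either direction). An unadjusted edgeR p under 0.05 was reached by 1450 of the 19416 genes tested, among them 2 members. The 2 members were MYB34 and SDI1, the second with a log2 fold change of -1.27 (SE 0.41, unadjusted p = 0.00805, edgeR adjusted p = 0.362). SDI1 averaged 1.28 ± 0.404 TPM in npf8.4-1 and 3.13 ± 0.918 TPM in Col-0 (SD, n = 3 each), lower in 3 of 3 libraries. SDI2 had a log2 fold change of -0.40 (SE 0.35, edgeR adjusted p = 0.964) and MYB28 of -0.22 (SE 0.14, edgeR adjusted p = 0.888), both with every npf8.4-1 library below every Col-0 library in CPM and with overlap in TPM. MYB29 had -0.27 (SE 0.19, edgeR adjusted p = 0.903) and MYB76 0.050 (SE 0.48, edgeR adjusted p = 0.9996), with overlapping libraries, and MYB76 changed sign without npf8.4-1 day 0 replicate 1 (-0.86) and without Col-0 day 0 replicate 3 (-0.17). In CPM, SDI1, SDI2 and MYB28 were thus wholly below Col-0 at day 0, where 7.52% of all genes were, and MYB34 wholly above, where 6% were. SDI1 and MYB34 were apart in TPM too. DESeq2 put 1 member past its threshold at day 0, MYB34, with a log2 fold change of 0.51 and a DESeq2 adjusted p of 0.0176, and its adjusted p ran from 0.0176 to 0.486 over 20 alternatives. Of 19414 genes at day 0, DESeq2 called 109 higher and 123 lower.

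**Figure D2:**
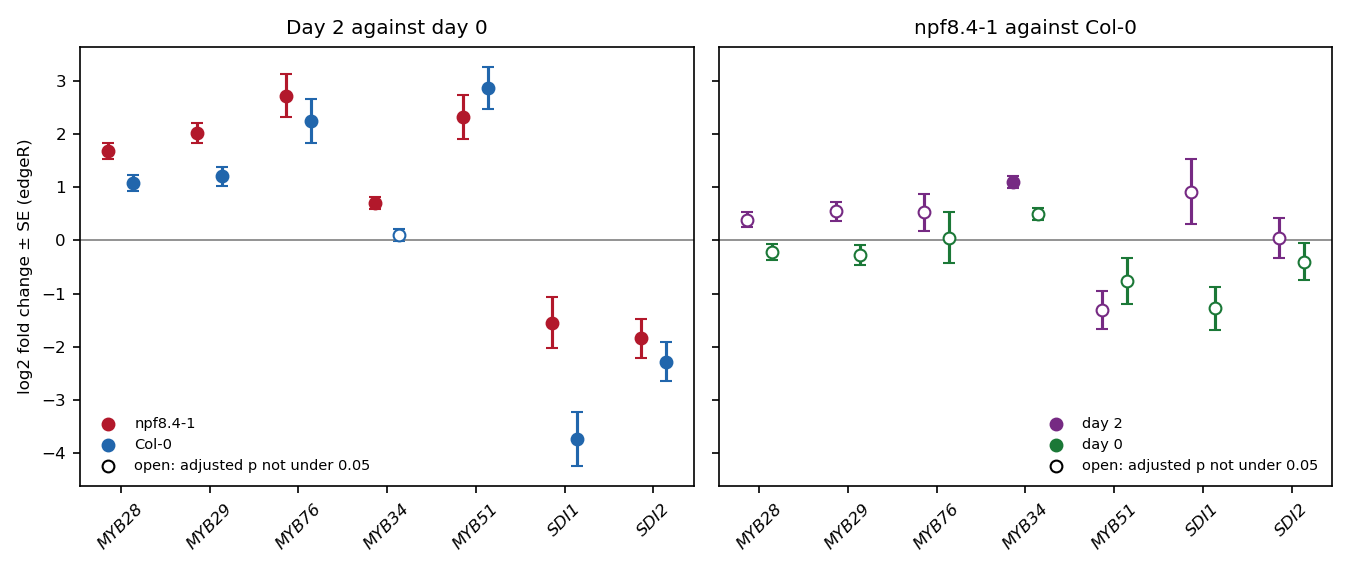
Log2 fold change ± SE from edgeR (vertical axis) for the 7 tested regulators, for day 2 against day 0 in each genotype (left) and for the mutant against Col-0 on either day (right). Filled points passed an adjusted p of 0.05: all 7 genes in npf8.4-1, all but MYB34 in Col-0, and MYB34 alone between the genotypes at day 2.

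Whether the depletion change itself differed between the genotypes was tested as an interaction, npf8.4-1 change minus Col-0 change. None of the 7 members passed with edgeR or DESeq2. Among all genes edgeR put 0 past the threshold (0%), with 1759 at an unadjusted p under 0.05, while DESeq2 called 56 higher and 213 lower. MYB34 had an interaction of 0.60 (SE 0.16, unadjusted p = 0.00295, edgeR adjusted p = 0.250), MYB29 of 0.82 (SE 0.26, unadjusted p = 0.00691, edgeR adjusted p = 0.317) and MYB28 of 0.61 (SE 0.20, unadjusted p = 0.0108, edgeR adjusted p = 0.357). SDI1, whose fitted decrease was smaller in npf8.4-1, had an interaction of 2.19 (SE 0.73, unadjusted p = 0.0105, edgeR adjusted p = 0.354). MYB76 had 0.48 (SE 0.60, edgeR adjusted p = 0.859), MYB51 -0.54 (SE 0.57, edgeR adjusted p = 0.828) and SDI2 0.44 (SE 0.51, edgeR adjusted p = 0.847). A different response of MYB34, or of any other member, in npf8.4-1 and Col-0 was therefore not shown.

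In TPM the order of the genes differed between the days. At npf8.4-1 day 2 the order by mean was MYB28 (65.2 TPM), MYB29 (22.9), MYB34 (22.6), MYB51 (8.74), SDI2 (8.49), MYB76 (3.996) and SDI1 (0.460), with overlapping libraries between MYB29 and MYB34 and between MYB51 and SDI2. At npf8.4-1 day 0 it was SDI2 (28.7 TPM), MYB28 (18.9), MYB34 (13.0), MYB29 (5.24), MYB51 (1.63), SDI1 (1.28) and MYB76 (0.564), with overlap between MYB51 and SDI1 and between SDI1 and MYB76. In the mutant MYB28 was therefore the most abundant at day 2 and SDI2 at day 0. At Col-0 day 2 it was MYB28 (49.4 TPM), MYB51 (21.7), MYB29 (15.6), MYB34 (10.3), SDI2 (8.25), MYB76 (2.75) and SDI1 (0.238), and from MYB51 to SDI2 each gene overlapped the next. At Col-0 day 0 it was SDI2 (38.2 TPM), MYB28 (22.2), MYB34 (9.24), MYB29 (6.39), SDI1 (3.13), MYB51 (2.77) and MYB76 (0.543), with overlap of SDI1 and MYB51. Among the 7 detected genes MYB51 thus stood next to first at Col-0 day 2 and next to last at Col-0 day 0.

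The 6 MYB genes together came to 123 ± 9.96 TPM at npf8.4-1 day 2 and 39.3 ± 5.37 TPM at npf8.4-1 day 0, against 99.7 ± 26.8 TPM at Col-0 day 2 and 41.2 ± 2.03 TPM at Col-0 day 0 (SD, n = 3 each). The sums of the genotypes overlapped at both days. MYB28 alone was 52.8 ± 0.399% of the sum at npf8.4-1 day 2 and 47.8 ± 2.63% at npf8.4-1 day 0, against 49.9 ± 2.50% at Col-0 day 2 and 53.9 ± 1.137% at Col-0 day 0. The MYB28 share ran from 44.8% to 55.2% over the 12 libraries and was lower in npf8.4-1 than in Col-0 at day 0 without overlap. The shares of the indole pair differed more. MYB34 made up 18.3 ± 2.60% at npf8.4-1 day 2 and 33.4 ± 4.11% at npf8.4-1 day 0, against 10.7 ± 2.19% at Col-0 day 2 and 22.4 ± 1.21% at Col-0 day 0. MYB51 made up 7.06 ± 2.85% at npf8.4-1 day 2 and 4.09 ± 1.22% at npf8.4-1 day 0, against 21.2 ± 3.00% at Col-0 day 2 and 6.81 ± 2.43% at Col-0 day 0. As a ratio of TPM in the same library, MYB34 was 1.53 to 4.58 times MYB51 at npf8.4-1 day 2 and 5.47 to 11.3 times at npf8.4-1 day 0, against 0.341 to 0.670 times at Col-0 day 2 and 2.67 to 5.79 times at Col-0 day 0. Col-0 day 2 was the one group in which MYB51 exceeded MYB34 in every library. These shares and ratios sum over chosen genes and are given without a test.

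**Figure D3:**
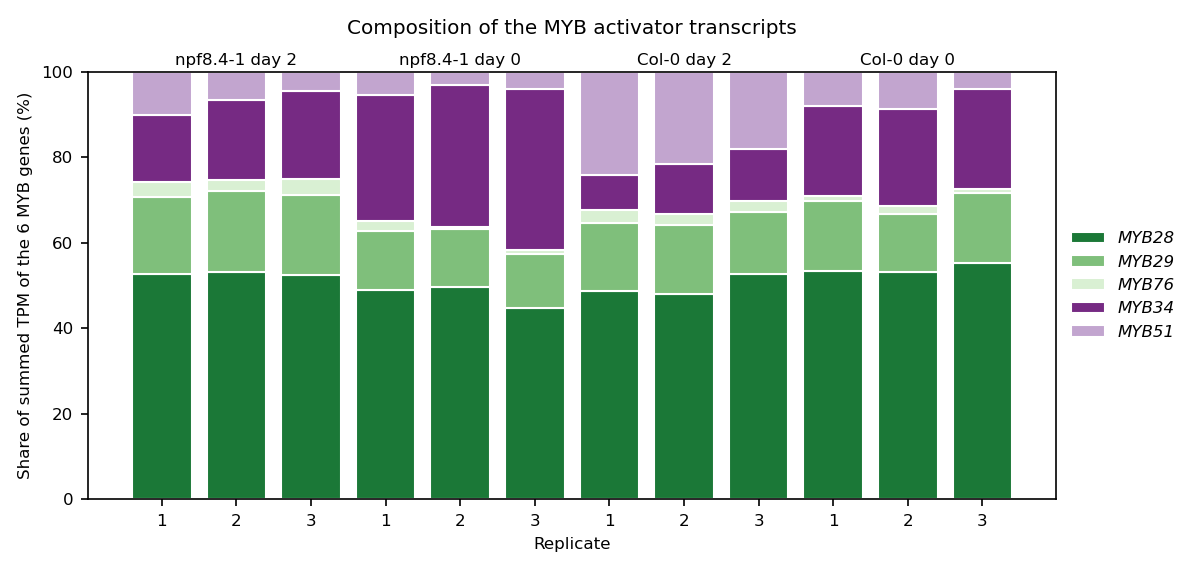
Share of the summed TPM of the 6 MYB genes (vertical axis, %) held by each gene in each of the 12 libraries, grouped by genotype and day, with MYB122 at 0. The MYB28 share stays between 44.8% and 55.2%, and the MYB51 share is widest at Col-0 day 2, at 18.1% to 24.1%.

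Repressor and activator transcripts were set side by side in each library. SDI1 and SDI2 summed to 8.95 ± 4.08 TPM at npf8.4-1 day 2 and 30.0 ± 3.87 TPM at npf8.4-1 day 0, against 8.49 ± 4.79 TPM at Col-0 day 2 and 41.3 ± 9.15 TPM at Col-0 day 0 (SD, n = 3 each). Divided by the sum of the aliphatic trio, this was 0.0628 to 0.149 at npf8.4-1 day 2 and 1.07 to 1.43 at npf8.4-1 day 0, against 0.0900 to 0.162 at Col-0 day 2 and 1.25 to 1.64 at Col-0 day 0. The SDI sum thus exceeded the sum of the aliphatic trio in all 6 day 0 libraries and was well under it in all 6 day 2 libraries. This ratio overlapped between the genotypes at both days. The SDI sums overlapped at day 2 and were apart at day 0, at 27.3 to 34.4 TPM in npf8.4-1 and 35.3 to 51.9 TPM in Col-0. Nearly all of the sum was SDI2, which stood at 13.9 to 40.3 times SDI1 in TPM at npf8.4-1 day 2 and 18.9 to 28.5 times at npf8.4-1 day 0, against 13.4 to 75.4 times at Col-0 day 2 and 9.52 to 16.4 times at Col-0 day 0, apart between the genotypes at day 0.

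**Figure D4:**
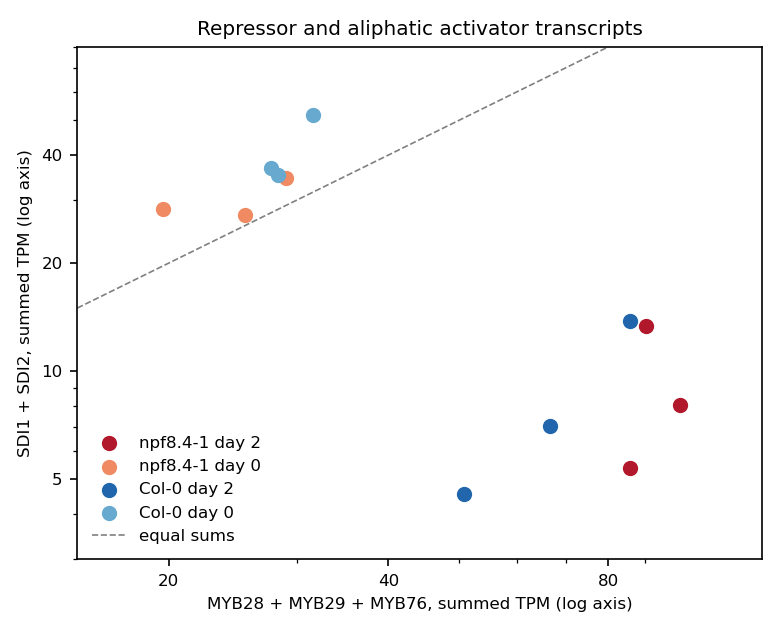
Summed TPM of SDI1 and SDI2 (vertical log axis) against summed TPM of MYB28, MYB29 and MYB76 (horizontal log axis), 1 point per library, with a dashed line where both sums are equal. The 6 day 0 libraries lie above the line, at ratios of 1.07 to 1.64, and the 6 day 2 libraries far below it, at 0.0628 to 0.162.

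Most enzyme genes of the pathway these regulators act on rose with depletion. In Col-0 this held for the indole genes too, where MYB51 rose and MYB34 did not pass. Whether these changes are linked was not tested. Of 36 tested genes of glucosinolate synthesis, 32 rose, 1 fell and 3 did not pass in npf8.4-1, with a median log2 fold change of 2.36, and 33 rose, 1 fell and 2 did not pass in Col-0, with a median of 1.90. Among all genes tested, 32.5% rose and 31.6% fell in npf8.4-1, and 29.6% rose and 30.4% fell in Col-0. The 13 tested genes of the aliphatic core and side chain all rose in both genotypes, among them FMO GS-OX3, a side-chain oxygenase, by 3.30 in npf8.4-1 (SE 0.13, edgeR adjusted p = 1.34e-08) and 2.54 in Col-0 (SE 0.13, edgeR adjusted p = 4.26e-08). Of 8 tested genes of side chain elongation 7 rose and 1 fell in both. MAM1, which catalyses the condensing step, had a log2 fold change of 3.15 in npf8.4-1 and 2.51 in Col-0, while BCAT3, which also serves in amino acid synthesis, fell by 0.32 in npf8.4-1 and fell by 0.36 in Col-0. MAM3, the neighbour of MAM1, did not pass the filter on low counts. Both shared core genes, GGP1 and SUR1, rose in both genotypes.

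Of 13 tested indole genes, 10 rose and 3 did not pass in npf8.4-1, and 11 rose and 2 did not pass in Col-0, with median log2 fold changes of 1.40 in npf8.4-1 and 1.27 in Col-0. The share of all genes that rose with depletion was 32.5% in npf8.4-1 and 29.6% in Col-0. CYP79B2, which makes the first indole intermediate, had a log2 fold change of 2.50 in npf8.4-1 and 2.16 in Col-0. At day 2, 2 of the 36 synthesis genes were higher in npf8.4-1 than in Col-0 and 1 was lower, where 0.484% and 0.953% of all genes were. The higher ones were SOT18, an aliphatic sulfotransferase, at 0.58 (SE 0.10, edgeR adjusted p = 0.0170), and UGT74B1, a glucosyltransferase, at 0.46 (SE 0.10, edgeR adjusted p = 0.0464). The lower one was CYP81F2, which modifies the indole ring, at 2.69 ± 0.518 CPM in npf8.4-1 and 18.8 ± 12.6 CPM in Col-0 (SD, n = 3 each), a log2 fold change of -2.80 (SE 0.54, edgeR adjusted p = 0.0344). At day 0, none of the 36 passed.

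**Figure D5:**
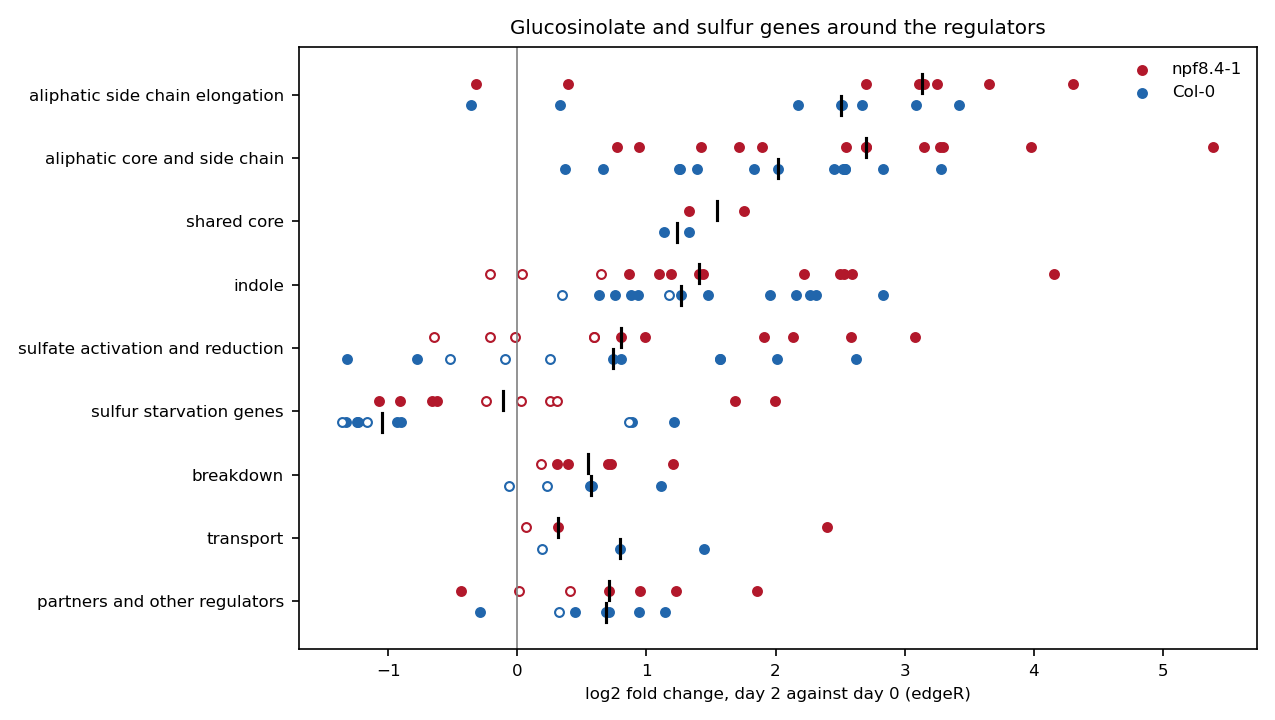
Log2 fold change of day 2 against day 0 from edgeR (horizontal axis) for the tested genes of 9 lists around the regulators, 1 point per gene, npf8.4-1 above Col-0 in each list, filled where adjusted p was under 0.05, with the median as a black line. The aliphatic lists lie furthest right, with medians of 2.70 to 3.13 in npf8.4-1 and 2.02 to 2.51 in Col-0, and the sulfur starvation list has medians of -0.11 in npf8.4-1 and -1.05 in Col-0.

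Among 7 partners and other regulators, 4 rose, 1 fell and 2 did not pass in npf8.4-1, and 5 rose, 1 fell and 1 did not pass in Col-0. For this list and the next, the shares over all genes were 32.5% higher and 31.6% lower in npf8.4-1. In Col-0 they were 29.6% higher and 30.4% lower. MYC5, a bHLH partner of these MYB factors, had a log2 fold change of 1.86 in npf8.4-1 (SE 0.26, edgeR adjusted p = 4.54e-05) and 1.144 in Col-0 (SE 0.27, edgeR adjusted p = 0.00281), and OBP2, a DOF factor of the indole branch, had 0.95 in npf8.4-1 and 0.94 in Col-0. Sulfate activation supplies the sulfate group, and its genes are listed together with those of sulfate reduction. Of these 11 genes 7 rose and 0 fell in npf8.4-1, and 6 rose and 2 fell in Col-0. Among the activation genes, APS4, an ATP sulfurylase, rose by 3.08 in npf8.4-1 (SE 0.14, edgeR adjusted p = 1.91e-08) and 2.62 in Col-0 (SE 0.13, edgeR adjusted p = 4.77e-08), and the kinases APK1 and APK2 rose in both. The reductase genes APR1, APR2 and APR3 averaged 31.2 ± 14.5, 75.6 ± 23.6 and 23.0 ± 11.1 CPM at Col-0 day 2 (SD, n = 3 each). At Col-0 day 0 they averaged 53.6 ± 6.49, 109 ± 5.97 and 57.5 ± 7.895 CPM. They averaged 50.8 ± 15.7, 77.1 ± 20.4 and 28.1 ± 9.63 CPM at npf8.4-1 day 2. At npf8.4-1 day 0 they averaged 33.7 ± 2.097, 89.2 ± 15.2 and 44.1 ± 2.92 CPM. None of the 11 genes of this list passed the interaction with edgeR, so a difference between the genotypes was not shown for them.

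SDI1 and SDI2 belong to the genes that rise when sulfate is short. Of 10 other tested genes of that response, 2 rose, 4 fell and 4 did not pass in npf8.4-1, and 2 rose, 5 fell and 3 did not pass in Col-0. GGCT2;1 fell by 1.07 in npf8.4-1 (SE 0.17, edgeR adjusted p = 0.000121) and fell by 1.33 in Col-0 (SE 0.17, edgeR adjusted p = 2.73e-05). SULTR2;1, a vascular sulfate transporter, is also counted among the vascular genes above. It rose by 1.68 in npf8.4-1 (SE 0.16, edgeR adjusted p = 1.95e-06) and 1.21 in Col-0 (SE 0.16, edgeR adjusted p = 3.44e-05). Of 3 transport genes 2 rose in each genotype: GTR2 and GTR3 in npf8.4-1, and GTR1 and GTR3 in Col-0. None of the 3 passed the interaction with edgeR, so a difference between the genotypes was not shown for them. Of 6 breakdown genes 5 rose in npf8.4-1 and 4 in Col-0. These counts stand in a background where 32.5% of all genes rose and 31.6% fell in npf8.4-1 (64.1% in either direction). In Col-0, 29.6% rose and 30.4% fell (60% in either direction).

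Likeness of pattern was measured as Pearson r of log2 CPM over the 12 libraries, which share 4 groups and so mostly carry the day. MYB28 and MYB29 were near copies of each other (r = 0.995), and MYB76 followed MYB28 at 0.934. The gene most like MYB28 was PAT1 (AT5G48150), a GRAS protein of phytochrome A signalling, at 0.996, and 1071 genes reached 0.95. Next to MYB29 stood MYB28 and the cytochrome P450 gene CYP78A9 (AT3G61880), at 0.993. For MYB76 the gene most alike was HMT3 (AT3G22740), a homocysteine methyltransferase, at 0.989.

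MYB34 had few genes like it, 2 at or over 0.95: TINY2 (AT5G11590), an AP2/ERF factor, at 0.962 and the polyubiquitin gene UBQ14 (AT4G02890) at 0.961. Over the same libraries MYB34 and MYB51 had r = -0.00225. The genes most like MYB51 were CNI1 (AT5G27420), a ubiquitin ligase named for carbon and nitrogen response, and IGMT4 (AT1G21130), a methyltransferase of indole glucosinolates, both at 0.991. SDI1 and SDI2 had r = 0.883, and SDI2 had r = -0.809 with MYB28. Most like SDI2 was HRA1 (AT3G10040), a hypoxia response factor, at 0.987, and most like SDI1 was ROP10 (AT3G48040), a small GTPase, at 0.952, the only gene to reach 0.95 with it.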

How the data were processed

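RNA sequencing of young leaves gave 12 libraries in 4 groups of 3, with groups and replicate numbers from the sample titles. Per the file headers, the authors deposited for each library a count of exon reads, a TPM and an RPKM per gene. Reads were demultiplexed with bcl2fastq 2.17.1.14 on build TAIR10, per the submitters' processing notes. The sources used here do not give the aligner, the counting program or its strand setting. Nothing was tested on the deposited TPM, which served for levels between genes, and RPKM was not used.

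Counts were tested in R 4.3.3 with edgeR 4.0.16 (quasi-likelihood, robust, TMM scaling, filterByExpr) with 4 group means fitted to the 12 libraries at once, and Benjamini-Hochberg adjustment over 19416 genes at a threshold of 0.05. SE is the log2 fold change divided by the root of the F statistic. CPM uses TMM-scaled totals, and log2 CPM a prior count of 2. DESeq2 1.42.0, other scalings, filters, a replicate block and left-out libraries were the alternatives. The fit was tested on simulated counts. No replicate pair agreed within sampling noise.

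The 8 members and the lists were chosen with earlier results of these data known, so no list is independent evidence. The members are named always. Up to 3 genes per list were candidates for examples by smallest p, and 3 genes per member by likeness. Other list genes named (BCAT3, MAM3, SOT18, UGT74B1, CYP81F2, APR1, APR2, APR3) are exceptions picked after their values were seen. AOP2 was not analysed here. Promoter windows come from the RefSeq genome TAIR10.1, on which 36806 of 36810 matched genes kept the deposited start and end. The replicate numbers were not taken to pair the samples.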

Additional observations from a re-analysis of the deposited data

How the results depend on the processing

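In 20 alternatives (19 for the interaction), the direction and call of every member in Col-0 depletion stayed, as did those of all but SDI1 in npf8.4-1 depletion. Members lower in npf8.4-1 depletion numbered 1 to 2 when single libraries were left out, the change being SDI1 at -1.30 without npf8.4-1 day 0 replicate 1 and -1.18 without npf8.4-1 day 2 replicate 2. With the DESeq2 test 1 member was higher at day 0 (MYB34) and 1 lower at day 2 (MYB51). Some values that did not pass changed sign. At day 0, MYB76 had a log2 fold change of 0.050 for npf8.4-1 against Col-0, and -0.17 without Col-0 day 0 replicate 3 and -0.86 without npf8.4-1 day 0 replicate 1, in a range of -0.86 to 0.40 over left-out libraries. At day 2, SDI2 had -0.36 without npf8.4-1 day 2 replicate 1, -0.11 without Col-0 day 2 replicate 2 and -0.26 without Col-0 day 2 replicate 3, in a range of -0.36 to 0.57. SDI1 had -0.017 without npf8.4-1 day 2 replicate 1, in a range of -0.017 to 1.29. SDI1 at day 2 could not be fitted with only the groups compared, where it was left out by the filter. The causes were not tested.

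Replicate numbers were not shown to pair the samples: 10 of 18 same-numbered pairs had deviations correlated over 0.1, from -0.173 to 0.418, and a library correlated best with its own number in 19 of 36 comparisons. With a replicate block, 1 member was higher at day 0 (MYB34, 0.50, edgeR adjusted p = 0.0423), 1 was lower at day 2 (MYB51, -1.33, edgeR adjusted p = 0.000496), and MYB76 at day 0 was -0.021.

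Counts over all genes moved more. At day 0, edgeR called 6 higher and 23 lower, against 109 and 123 with DESeq2, 47 and 126 with the replicate block, and 1 and 11 without Col-0 day 0 replicate 1. At day 2 it called 94 and 185, against 259 and 525 with DESeq2, 260 and 355 with the block, 31 and 99 with only the groups compared, 12 and 32 without the third day 2 libraries of both genotypes, and 7 and 22 without npf8.4-1 day 2 replicate 2. For the interaction the block called 15 and 28. Scaling by library totals alone moved the median of all genes in npf8.4-1 depletion to 0.10, and no member's direction turned. Depth limits MYB122, at 0 reads, SDI1, at 4 to 23 reads per day 2 library, and MYB76, at 7 to 33 reads per day 0 library.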
